A study of Mus musculus with 2 samples.

Results

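The genes described here are 10 members of the negative feedback on the ERK branch of MAP kinase signalling: the MAP kinase phosphatase genes *Dusp1*, *Dusp2*, *Dusp4*, *Dusp5*, *Dusp6* and *Dusp10*, the Sprouty genes *Spry1* and *Spry2*, and the Spred genes *Spred1* and *Spred2*. They were taken by symbol, with no threshold on their values, from the 23282 rows of the deposited table, and each matched 1 row. The study cultured naïve CD4+ T cells from the spleens of young adult female C57BL/6 mice, wild type by genotype, for 1 day under conditions that induce Treg cells. The control culture received DMSO, the solvent, and the other culture received 10 μM Tubastatin A (TSA), an inhibitor of the deacetylase HDAC6. Both cultures were stimulated through CD3 and CD28 with TGF-β1 and IL-2, and antibodies blocked IFN-γ and IL-4 in both. There was 1 library per condition, so none of the differences below has a replicate check, and no p-value is given. In such bulk libraries, fewer cells that express a gene and less RNA per cell cannot be told apart.

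T cell receptor and CD28 signals activate Ras, which starts the kinase cascade of Raf, MEK and ERK. Active ERK switches on genes whose products then turn the pathway down. The dual-specificity phosphatases remove the phosphates that keep MAP kinases active, each with its own preference for ERK, JNK or p38 and its own place in the nucleus or the cytoplasm. Sprouty and Spred proteins act higher up, at the level of Ras and Raf. Because transcription of several of these genes follows ERK activity, they are often used as readouts of the pathway, although mRNA levels do not measure phosphorylation.

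In the TSA library, 2 members differed from control by more than counting error, in opposite directions, which is 2 of the 9 with enough reads to test, where 56.1% of all 12164 tested genes differed by that measure. *Dusp6*, the cytoplasmic phosphatase selective for ERK, was higher, with 584 reads in control and 924 in TSA. *Dusp4*, a nuclear phosphatase, was lower, with 976 and 638 reads. *Dusp2*, by far the most abundant member, had 4999 and 4955 reads, and the Sprouty and Spred genes also had intervals that spanned no change. None of the 9 passed 2-fold, where 14.7% of all tested genes did.

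The libraries held 10845868 reads on genes for control and 10432698 for TSA. Reads were recovered from the deposited values, which were taken to be log2 of a normalized count plus 1. Fold changes are the difference of these values (TSA minus control) returned to the linear scale. The bracketed range is a 95% interval from the reads by the exact Clopper-Pearson method, which compares these libraries and covers counting error only. A gene was tested when 1 library had at least 10 reads, and the depth floor was set at 3 reads. Levels are given as CPM, that is, reads scaled to the same total of reads on genes, on which scale the floor is 0.277 in control and 0.288 in TSA. The T cell markers (6 genes, 12943 and 13368 reads) and Treg markers (5 genes, 15285 and 13839 reads) were all present in both libraries, and *Foxp3* had 1633 and 965 reads. Marker sums in control and TSA were 12 and 15 reads for 4 B cell genes (*Ms4a1* 0 and 5, *Cd79a* 1 and 5, *Cd79b* 11 and 4), 58 and 40 for 5 myeloid genes, 80 and 87 for 2 CD8 genes and 33 and 49 for 3 erythroid genes. The 3 dendritic cell genes summed to 6 and 44 reads, of which *Flt3* gave 0 and 33, *Zbtb46* 2 and 11 and *Itgax* 4 and 0, and the 3 NK cell genes to 889 and 1044, nearly all from *Nkg7*, with *Klrb1c* at 0 in both and *Ncr1* at 0 and 1. The part of such cells in the results was not tested.

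Promoter sequence was examined because transcription of these genes is the point at which ERK activity feeds back. The RefSeq promoter table of GRCm38.p6 held a window for 9 of the 10 members, all but *Dusp4*. Letters were searched on both strands in the 250 bases before each start. The cyclic AMP response element (CRE, TGACGTCA) was found in *Dusp1*, at position -143 from the start, against 1.55% of all 32851 windows. The EGR motif (GCGNGGGCG) was found in *Dusp2*, at position -98, against 4.7% of windows. The CArG box, which the serum response factor binds, was found in *Dusp5*, as a pair at positions -82 and -72, against 1.47% of windows. The NF-κB motif (GGGNNNTCC) was found in *Dusp1*, *Dusp5* and *Spry1*, against 15.2% of windows. No member's window held the AP-1 motif (TGANTCA, 6.75% of windows), the ETS motif (CCGGAAGT, 2.88%) or TATAAA (12.4%). A match is a run of letters, not a measured binding site.

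Shown 5′ to 3′ on the gene's strand are the windows of *Dusp6*, the member that was higher, *Dusp2*, the most abundant, and *Dusp1* and *Dusp5*, which hold the CRE and the CArG boxes. Capitals mark the CRE, EGR and CArG matches, of which *Dusp6* has none. The last bases of *Dusp1* and *Dusp5*, where a GENCODE transcript starts inside the window, are left out, and with them all or part of their NF-κB match. They lie on GRCm38 at chr10:99262981-99263230 (plus strand), chr2:127335909-127336158 (plus strand), chr17:26508520-26508722 (minus strand) and chr19:53528895-53529108 (plus strand).
Dusp6: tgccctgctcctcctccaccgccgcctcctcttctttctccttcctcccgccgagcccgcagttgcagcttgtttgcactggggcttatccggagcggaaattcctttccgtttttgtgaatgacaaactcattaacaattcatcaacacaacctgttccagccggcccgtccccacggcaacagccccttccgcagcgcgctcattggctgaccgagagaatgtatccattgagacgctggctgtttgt
Dusp2: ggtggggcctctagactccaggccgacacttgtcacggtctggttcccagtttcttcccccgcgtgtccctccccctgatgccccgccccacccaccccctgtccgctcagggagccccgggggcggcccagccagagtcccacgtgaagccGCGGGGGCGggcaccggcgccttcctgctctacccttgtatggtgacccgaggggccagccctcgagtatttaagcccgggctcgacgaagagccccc
Dusp1: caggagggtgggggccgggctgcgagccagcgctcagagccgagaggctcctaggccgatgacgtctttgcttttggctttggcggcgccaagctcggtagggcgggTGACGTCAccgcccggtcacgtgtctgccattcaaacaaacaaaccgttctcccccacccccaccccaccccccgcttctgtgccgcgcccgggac
Dusp5: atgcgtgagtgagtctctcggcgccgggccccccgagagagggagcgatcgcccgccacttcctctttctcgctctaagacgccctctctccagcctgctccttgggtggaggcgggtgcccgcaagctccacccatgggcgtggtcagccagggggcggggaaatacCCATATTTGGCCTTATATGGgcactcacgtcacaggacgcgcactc

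The windows of the members were rich in G and C, with a median of 62.4% against 52.4% over all windows, and held a median of 21 CpG dinucleotides against 6. Those windows were not limited to tested or protein-coding genes, so the difference need not be particular to the members. The genes also have few exons. In GENCODE M21, the longest transcript of a member had between 2 and 7 exons, with a median of 4, whereas the median over 11099 tested protein-coding genes was 9. All 10 are annotated as protein-coding. The spans of *Dusp1*, *Dusp5*, *Dusp10* and *Spry1* overlap other annotated genes. That of *Dusp1* is long because GENCODE holds a transcript of it that starts far upstream, so its printed bases lie inside the span. Whether the counting used strand is not given in the sources used here, so reads of those 4 members could include reads of a neighbour. The spans of the other 6 overlap no annotated gene, but within 1000 bases of the 3′ end, where this kit reads, the annotation holds *Astl* on the strand of *Dusp2*, and for *Dusp6* holds *Gm48089* on its strand and *Gm34921* on the other. Their part in the reads of *Dusp2* and *Dusp6* was not tested.

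The nuclear, inducible phosphatases come first. *Dusp2* encodes PAC-1, a nuclear phosphatase named for its presence in activated T cells, and lies on chromosome 2 from 127336159 to 127338376. Its level was 461 CPM in control (448 to 474) and 475 in TSA (462 to 488), higher than that of 97.6% of the tested genes in control. The fold change (TSA over control) was 0.981 (0.943 to 1.02). Its direction turned with the scaling, from a log2 fold change of -0.03 as deposited to 0.043 under scaling by total reads. It held 66.4% of the members' reads in control and 66.2% in TSA.

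*Dusp4* encodes MKP-2, which acts on ERK, JNK and p38 in the nucleus, and lies on chromosome 8 from 34807297 to 34819894. Its 976 reads in control and 638 in TSA were 90.0 and 61.2 CPM. The fold change was 0.648 (0.585 to 0.716), a log2 fold change of -0.63. The interval lay below 1 and above the 2-fold limit. *Dusp1*, on chromosome 17 from 26505590 to 26562128, encodes MKP-1, an immediate-early phosphatase that favours p38 and JNK. It had 129 reads in control and 107 in TSA, a fold change of 0.823 (0.63 to 1.07), so its lower value was within counting error. *Dusp5* encodes a nuclear phosphatase selective for ERK and lies on chromosome 19 from 53529109 to 53542431. It had 1 read in control and 5 in TSA, too few to test, and its fold change of 2.98 had an interval of 0.554 to 234. No difference in *Dusp5* was detected, and one of the observed size could not be resolved at these counts.

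*Dusp6* encodes the cytoplasmic phosphatase MKP-3 and lies on chromosome 10 from 99263231 to 99267489. Its 584 reads in control and 924 in TSA were 53.8 and 88.6 CPM. The fold change was 1.57 (1.41 to 1.74), a log2 fold change of 0.65, again short of 2-fold. *Dusp10* encodes MKP-5, which prefers JNK and p38 to ERK, and lies on chromosome 1 from 184013302 to 184075636. It had 83 reads in each library, and its fold change was 0.99 (0.722 to 1.36). As with *Dusp2*, the sign of this value changed with total-read scaling, from -0.01 to 0.055 on the log2 scale.

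Sprouty genes encode membrane-associated inhibitors of Ras activation by receptors. *Spry1* lies on chromosome 3 from 37639947 to 37644598 and had 303 reads in control and 323 in TSA, a fold change of 1.06 (0.9 to 1.24). *Spry2* lies on chromosome 14 from 105891947 to 105896819 and had 34 and 31 reads, which gave a fold change of 0.906 (0.537 to 1.51). The Spred genes encode Sprouty relatives that bring neurofibromin, a Ras inactivator, to the membrane. *Spred1*, on chromosome 2 from 117121374 to 117182279, had 395 and 400 reads and a fold change of 1 (0.87 to 1.16). *Spred2*, on chromosome 11 from 19924375 to 20024026, had 23 and 14 reads and a fold change of 0.619 (0.287 to 1.22). For *Spry1* and *Spred1* the intervals stayed within 1.5-fold on either side, while those of *Spry2* and *Spred2* did not.

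**Figure D1:**
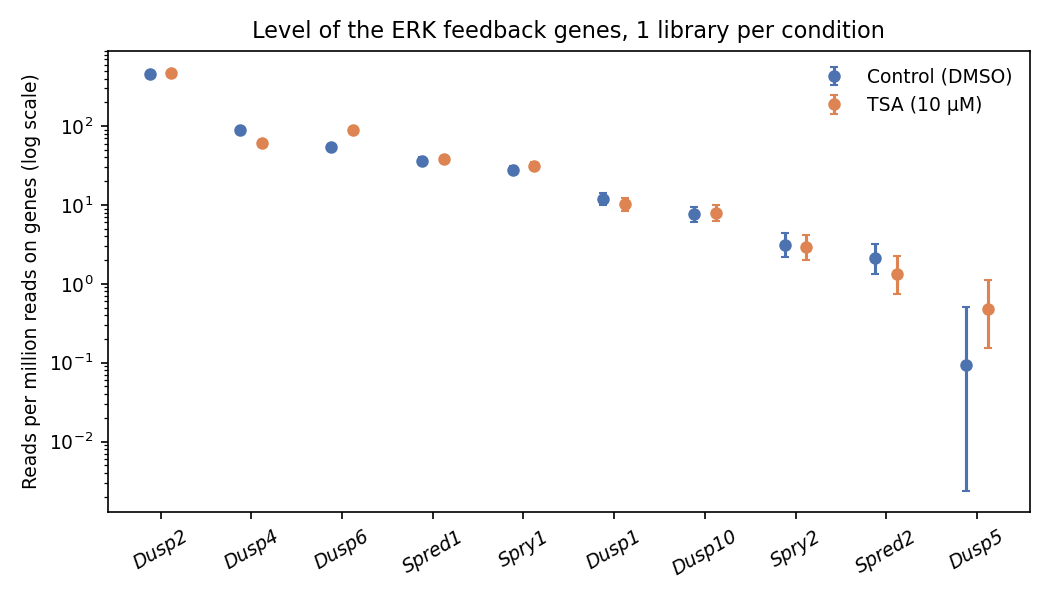
Level of each of the 10 members in the control library (blue) and the TSA library (orange), in CPM on a log axis, with exact 95% counting intervals as bars. *Dusp2* stands at 461 and 475, far above the rest, and *Dusp4* (90.0 and 61.2) and *Dusp6* (53.8 and 88.6) exchange places between the libraries.

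The QuantSeq kit reads the end of a transcript, so a count stands for captured transcripts whatever their length, and levels were compared between genes without dividing by length. In control, the order of the levels was *Dusp2*, *Dusp4*, *Dusp6*, *Spred1*, *Spry1*, *Dusp1*, *Dusp10*, *Spry2*, *Spred2* and *Dusp5*. Neighbours differed by more than counting error except *Spry2* and *Spred2*, with a ratio of 1.48 (0.846 to 2.63). In TSA the order was the same but for *Dusp6*, which stood above *Dusp4*. There, *Dusp1* and *Dusp10* (ratio 1.29, 0.959 to 1.74) and *Spred2* and *Dusp5* (ratio 2.8, 0.953 to 9.93) did not differ beyond counting error.

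The ratio of *Dusp6* to *Dusp4* within a library does not depend on how the libraries were scaled. It was 0.598 in control and 1.45 in TSA, which is 2.42 times as high (exact conditional 95% interval 2.09 to 2.8). Against *Dusp2*, the ratio of *Dusp4* went from 0.195 to 0.129, or 0.659 times (0.591 to 0.735), and that of *Dusp6* from 0.117 to 0.186, or 1.6 times (1.43 to 1.79). Against *Dusp6*, the ratio of *Spry1* went from 0.519 to 0.35, or 0.674 times (0.556 to 0.817). The pairs were chosen after their values were seen, and the ratios restate the fold changes of *Dusp4* and *Dusp6* without the scaling. *Dusp4* made up 13.0% of the members' reads in control (12.2 to 13.7) and 8.53% in TSA (7.91 to 9.19), and *Dusp6* 7.76% (7.16 to 8.39) and 12.4% (11.6 to 13.1). The sum over the members was 7527 and 7480 reads, with a fold change of 0.984 (0.953 to 1.02) as deposited, and 1.03 (1 to 1.07) by total reads. Without *Dusp2*, the sum over the other 9 was 2528 and 2525 reads, with a fold change of 0.989 (0.936 to 1.05) as deposited and 1.04 (0.982 to 1.1) by total reads.

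**Figure D2:**
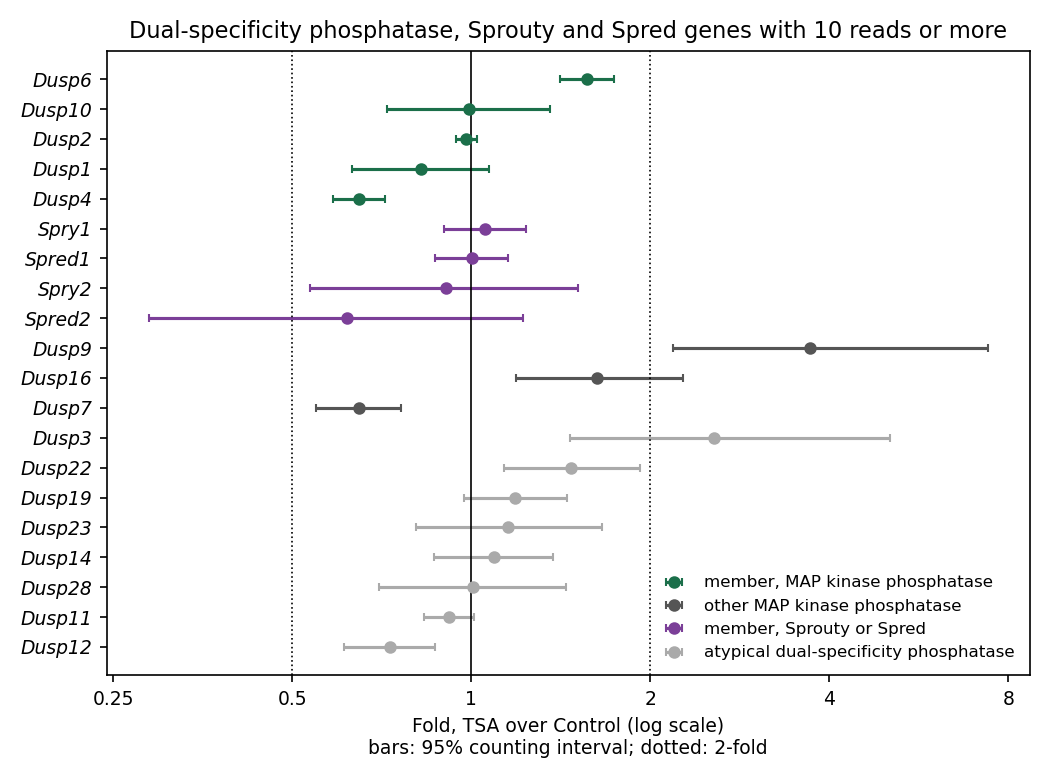
Fold change (TSA over control, log axis) of the dual-specificity phosphatase, Sprouty and Spred genes with at least 10 reads in 1 library, with exact 95% counting intervals as bars and dotted lines at 2-fold. Colours separate the member phosphatases, the member Sprouty and Spred genes, and the other family genes. Among the members, the intervals of *Dusp6* (1.57) and *Dusp4* (0.648) exclude 1, and no member's point passes a dotted line.

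The genes past 2-fold were 11.5% of all tested genes on the higher side in the TSA library and 3.15% on the lower side, against 0 of the 9 tested members on either. With a limit of 1.5-fold, 3 of the 9 members passed, namely *Dusp4*, *Dusp6* and *Spred2*, beside 27.1% of all tested genes. *Spred2* rested on few reads. When the normalized count averaged over the libraries had to reach 50, 2 of 7 members passed 1.5-fold, beside 15.3% of 9399 genes, and 0 passed 2-fold, beside 4.46%. Of those 7, the interval excluded no change for *Dusp4* and *Dusp6*, beside 58.1% of the genes at that level. The median log2 fold change of the 9 tested members was -0.027, against 0.015 over all tested genes, and became positive under scaling by total reads (0.043) or upper quartile (0.016). As deposited, 6 of the 9 were lower, among them *Dusp2* and *Dusp10*, whose sign changed under those scalings. These shares describe the list and do not test it.

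**Figure D3:**
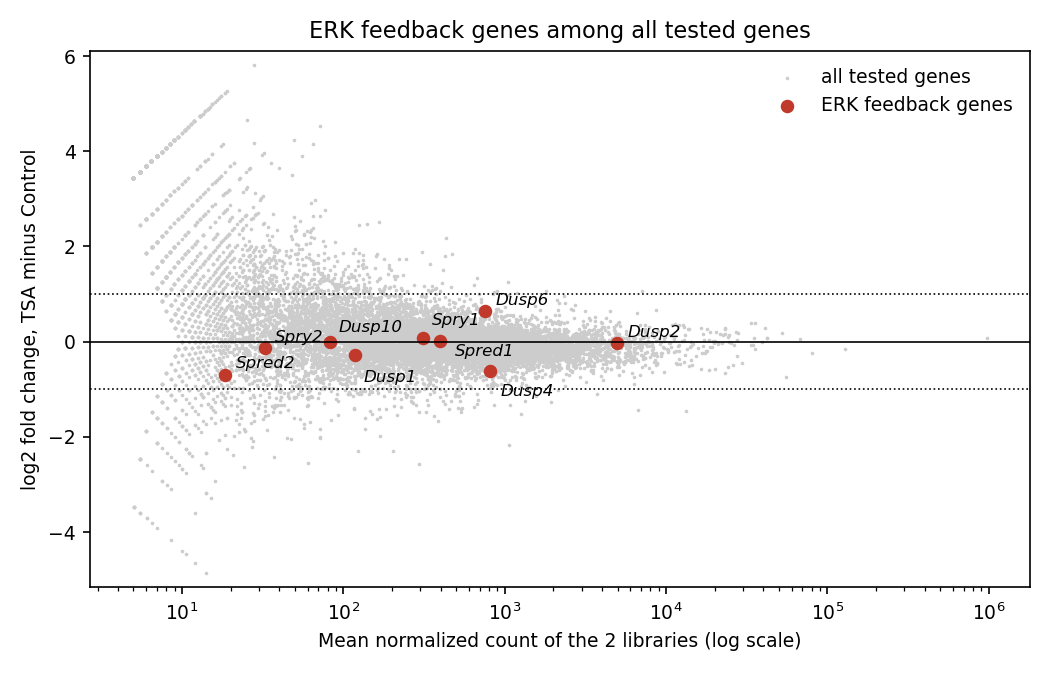
Log2 fold change (TSA minus control) against the mean normalized count of the libraries (log axis) for all 12164 tested genes (grey) and the 9 tested members (red), with dotted lines at 2-fold. All 9 members lie between the dotted lines, from *Spred2* at -0.69 to *Dusp6* at 0.65, while genes with few reads spread far above the upper line.

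The families hold further genes that were not among the 10. Of 31 *Dusp*, *Spry* and *Spred* rows in the table, 20 were tested and 6 had no read in either library. *Dusp7*, on chromosome 9, encodes a cytoplasmic phosphatase selective for ERK like that of *Dusp6*, but was lower with TSA, at 376 and 246 reads, which gave a fold change of 0.649 (0.549 to 0.763). The ratio of *Dusp6* to *Dusp7*, also chosen after the values were seen, went from 1.55 to 3.76. *Dusp9*, the remaining gene of this cytoplasmic subgroup, had 15 reads in control and 59 in TSA, a fold change of 3.71 (2.18 to 7.39). It belongs to a range of levels in which a higher value was common, since 40.6% of 2765 genes with a mean under 50 were higher by more than 2-fold. *Dusp16*, a phosphatase of JNK and p38, had 64 and 106 reads, which gave a fold change of 1.63 (1.19 to 2.27).

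Summed by subgroup, the nuclear inducible phosphatases (*Dusp1*, *Dusp2*, *Dusp4* and *Dusp5*) had 6105 and 5705 reads, with a fold change of 0.925 (0.892 to 0.959) as deposited. By total reads it was 0.971 (0.937 to 1.01), which spans no change, and *Dusp4* gave most of the difference in reads. The cytoplasmic ERK phosphatases (*Dusp6*, *Dusp7* and *Dusp9*) had 975 and 1229 reads, which gave a fold change of 1.25 (1.15 to 1.36). The JNK and p38 phosphatases (*Dusp8*, *Dusp10* and *Dusp16*) had 151 and 191 reads, which gave a fold change of 1.25 (1.01 to 1.56), with the higher value from *Dusp16* alone, since *Dusp10* had 83 reads in each library and *Dusp8* had 4 and 2. Within the cytoplasmic subgroup the genes differed in direction, since *Dusp7* was lower. *Spry4* and *Spred3* each had 0 reads in control and 4 in TSA, too few to test, and their intervals (from 0.654 upward) included no change. *Spry3* had no read in either library.

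The atypical dual-specificity phosphatases are smaller and lack the domain by which MAP kinase phosphatases bind their kinases. Of 11 listed, 8 were tested and 1 passed 2-fold, as 14.7% of all tested genes did. This was *Dusp3*, which encodes VHR, with 16 and 43 reads and a fold change of 2.56 (1.47 to 5.06). Like *Dusp9*, it had a mean under 50. *Dusp22*, an inhibitor of T cell receptor signalling, had 98 and 146 reads, which gave a fold change of 1.47 (1.13 to 1.93), and *Dusp12* had 305 and 225 reads, which gave a fold change of 0.732 (0.612 to 0.871). In the other 5, counting error covered no change. They were *Dusp11* (871 and 807 reads), *Dusp14* (147 and 162), *Dusp19* (186 and 223), *Dusp23* (60 and 70) and *Dusp28* (64 and 65).

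The genes that ERK acts through and on were described from lists of 25 cascade genes, 16 other brakes on Ras and ERK, and 15 genes that respond to ERK. Of 24 cascade genes tested, 1 passed 2-fold upward, where 11.5% of all tested genes did, and 0 downward, where 3.15% did, and the median log2 fold change was 0.026. *Rasgrp2*, an exchange factor gene for Ras-family GTPases, had 119 and 314 reads, which gave a fold change of 2.6 (2.11 to 3.25), and *Pea15a*, whose product keeps ERK in the cytoplasm, had 164 and 268 reads, which gave a fold change of 1.61 (1.33 to 1.98). At the other end, *Hras* (664 and 494 reads) and *Map2k2*, which encodes MEK2 (1233 and 954 reads), had fold changes of 0.737 and 0.766. *Mapk3*, which encodes ERK1 and is given after its values were seen, had 387 and 590 reads and a fold change of 1.51 (1.33 to 1.72).

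Among the 16 other brakes, all tested, 4 passed 2-fold upward, where 11.5% of all tested genes did, and 0 downward, where 3.15% did. The median log2 fold change was 0.395, and 0.258 when a mean of at least 50 was required. *Nf1*, which encodes the neurofibromin that Spred proteins recruit, had 39 and 93 reads, which gave a fold change of 2.33 (1.61 to 3.53). *Dab2ip*, another Ras GTPase-activating protein gene, had 111 and 245 reads, which gave a fold change of 2.17 (1.74 to 2.76). The other 2 of the 4, named after their values were seen, rested on few reads: *Il17rd*, which encodes the ERK inhibitor Sef, had 0 and 13 reads, with an interval from 3.02 upward, and *Ptprr* had 5 and 13, with an interval that spanned no change. *Ptpn7*, a tyrosine phosphatase gene whose product inactivates ERK in lymphocytes, was the lowest of the list, at 1163 and 735 reads, which gave a fold change of 0.626 (0.57 to 0.687). *Rasal3* followed, at 554 and 430 reads, a fold change of 0.769.

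Of the 15 ERK-responsive genes, all tested, 4 passed 2-fold upward (11.5% of all tested genes) and 0 downward (3.15%), and the median log2 fold change was -0.092. The interval lay above no change for 4 of the 15, where that of 28.1% of all tested genes did, and below it for 6, where that of 28.0% did. *Ccnd1*, which encodes cyclin D1, had 16 and 85 reads, which gave a fold change of 5.01 (3.06 to 9.62). *Etv5*, an ETS factor gene that follows ERK activity in many tissues, had 19 and 83 reads, which gave a fold change of 4.16 (2.6 to 7.54). The mean normalized counts of *Ccnd1* and *Etv5* were 50.3 and 50.8, barely over 50, and 40.6% of genes under 50 passed 2-fold upward. The other 2, named after their values were seen, were *Ier3*, with 148 and 317 reads and a fold change of 2.11 (1.74 to 2.6), and *Fos*, with 4 and 12 reads and an interval that spanned no change. The lowest of the list, also named after its values were seen, was *Fosb*, with 39 and 20 reads and a fold change of 0.52 (0.281 to 0.892). The lowest with a mean of at least 50 were *Fosl2*, at 343 and 224 reads and a fold change of 0.648 (0.544 to 0.767), and *Phlda1*, at 1089 and 834 reads and a fold change of 0.759. The EGR genes, also given after their values were seen, had intervals that spanned no change, with 1164 and 1231 reads for *Egr1*, 727 and 763 for *Egr2* and 756 and 716 for *Egr3*.

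**Figure D4:**
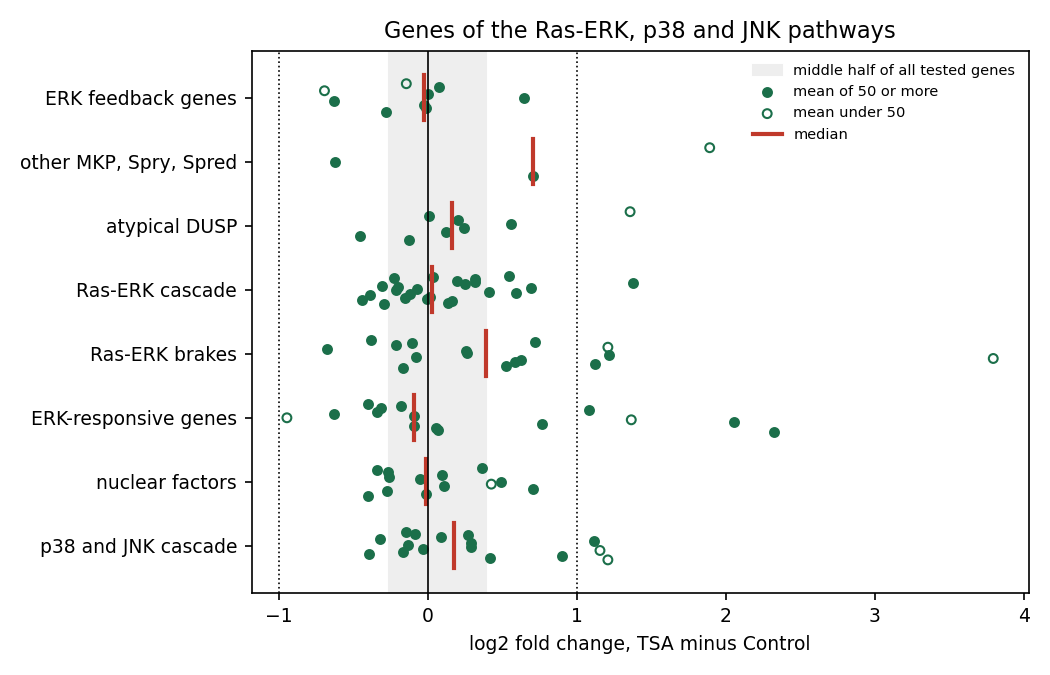
Log2 fold change (TSA minus control) of each tested gene in 8 lists, with filled points for a mean normalized count of 50 or more, open points below that, a red line at each list's median and a grey band for the middle 50% of all tested genes. The members are spread about 0 with a median of -0.027, and every point past a dotted 2-fold line lies on the higher side.

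Over the 7 lists other than the members, 95 of 105 genes were tested, of which 14 passed 2-fold upward, where 11.5% of all tested genes did, and 0 downward, where 3.15% did. Some of the 14 had at least 10 reads in the TSA library alone, and 10 passed when both libraries had to reach 10 reads. For 37 the interval lay above no change, where that of 28.1% of all tested genes did, and for 27 below it, where that of 28.0% did. For 31 it spanned no change.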

How the data were processed

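Lexogen QuantSeq libraries were sequenced by the authors as single-end reads and analysed with ExDEGA. The submitters' processing notes name Bowtie2, bedtools and the build mm10. Counting settings, annotation and normalization are not given in the sources used here. The authors deposited log2 values for each gene and library, taken here to be log2 of a normalized count plus 1. Taken out of that scale, low values were multiples of 1.005 in control and 0.9951 in TSA; among values of 1 to 300 reads, 99.7% and 99.9% lay within 0.1 of a whole read. In the control table, 1940 entries that held no read had a value between 0.001 and 0.016, which was taken as 0. Rounding to 3 decimals leaves reads of *Dusp2* uncertain by up to 1.73.

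The deposited scaling and its pseudocount of 1 were kept. Groups were taken from the treatment labels. Intervals and the floor of 3 reads cover counting error only. Molecular identifiers are not mentioned in the sources used here, so copies of 1 captured transcript could not be told apart. No test between conditions was possible with 1 library per condition, and no test across genes was run. The members, gene lists and motifs were chosen with earlier results of these data known. Named by rule besides the members were all tested genes of their families, cell type markers, and the 2 highest and 2 lowest genes of each other list with a mean of at least 50. Further genes of the lists were named after their values were seen, as stated where they appear. Some untested family genes were named as well. Promoters were taken from RefSeq (GRCm38.p6), with 32851 windows, and gene models from the basic GENCODE M21 set. A planned comparison of protein sequences was not made. The steps were tested on simulated data. Scripts ran in Python 3.11.15 with scipy 1.17.1, numpy 2.4.6, matplotlib 3.10.9 and pandas 2.3.3. Alternatives were tried for scaling, pseudocount, filter and threshold.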

Additional observations from a re-analysis of the deposited data

How the results depend on the processing

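No paired analysis was possible because each condition had a single library, so leaving out a replicate could not be tried either. The count of members past 2-fold was 0 under the 4 other scalings, both other pseudocounts, the filters of 10 reads in both libraries and of a mean of 50, and the rule that the whole interval pass 2-fold. It was 1 (*Dusp5*) without a filter and 3 at 1.5-fold. Total-read scaling shifted all tested genes by a median of 0.07 on the log2 scale and moved the members' median to 0.043, and upper-quartile scaling moved it to 0.016. Scaling by trimmed mean of M-values and by median of ratios shifted them by a median of 0.0 and -0.002. These scalings nearly repeat the deposited one, so agreement under them adds little. Of 60 recomputed member values, 59 stayed within the counting interval, *Dusp2* under total reads being the exception, and 4 took another sign (*Dusp2* and *Dusp10*, under total reads and upper quartile). *Dusp4* stayed lower (log2 fold change -0.63 to -0.56) and *Dusp6* higher (0.64 to 0.72) under all 6. In the other lists, 7 of 86 genes passed 2-fold with a mean of at least 50 required, against 14 of 95, and 27 of 95 passed 1.5-fold, beside 4.46% and 27.1% of all genes under the same limits. With that mean required, the median of the further MAP kinase phosphatase, Sprouty and Spred genes was 0.041 in place of 0.705, since *Dusp9* left the list. Depth limits *Dusp5*, *Spry2* and *Spred2* among the members.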

Other observations

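The p38 and JNK cascades, on which *Dusp1*, *Dusp10* and *Dusp16* act, were represented by 18 genes, of which 16 were tested. Of these, 3 passed 2-fold upward with TSA, where 11.5% of all tested genes did, and 0 downward, where 3.15% did, and the median log2 fold change was 0.179, or 0.029 when a mean of at least 50 was required. *Mapk11*, which encodes p38β, had 77 reads in control and 170 in TSA, a fold change of 2.17 (1.66 to 2.9). *Gadd45g*, an activator of the kinase above p38 and JNK, had 272 and 513 reads, which gave a fold change of 1.86 (1.61 to 2.17). The other 2 past 2-fold, named after their values were seen, were *Map2k6* (11 and 26 reads) and *Gadd45a* (5 and 13 reads, with an interval that spanned no change), both with a mean under 50, where 40.6% of genes passed upward. *Map2k3*, whose product activates p38, was lowest, with 2503 and 1921 reads and a fold change of 0.76 (0.716 to 0.807), next to *Mapk14*, the gene of p38α, with 389 and 315 reads and a fold change of 0.803.

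Of 13 genes for nuclear factors that MAP kinases act on, all tested, 0 passed 2-fold, where 14.7% of all tested genes did, and their median on the log2 scale was -0.01 as deposited and 0.06 under scaling by total reads. *Elk1*, a partner of the serum response factor, had 146 and 241 reads, which gave a fold change of 1.63 (1.33 to 2.02), and *Ets1* had 2758 and 3917 reads, which gave a fold change of 1.41 (1.34 to 1.48). The lowest were *Atf1*, at 519 and 397 reads and a fold change of 0.758, and *Jund*, at 3395 and 2707 reads and a fold change of 0.789.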
